A study of Rattus norvegicus with 4 samples.

Results

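Potassium channel genes, the genes whose symbols start with Kcn, were described in the hippocampus of rats that ran for 4 weeks in a wheel. The members were all noncontrol probes of the array whose accession led to such a symbol in the RefSeq gene table of the GRCr8 assembly. This gave 86 probes of 75 genes, out of 41012 noncontrol probes, of which 10768 carried a name for 8899 genes. Of the 97 Kcn symbols in that table, 22 had no matched probe and were not analysed here. Of the 75 genes, 65 had 1 probe, 9 had 2 and Kcnj3 had 3. Where a gene had more than 1 probe, the brightest stood for it.

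The study asked how voluntary running with and without resistance changes hippocampal gene expression. Male Wistar rats aged 10 weeks were kept sedentary (10 rats), given a wheel with no resistance (WR, 8 rats), or given a wheel with resistance (RWR, 8 rats) that started at 4.5 g in the first week and rose to 30% of body weight. All rats were housed singly, and the labels name no transgene or drug. RNA of replicates was pooled in equal amounts within each group. By the amounts given in the methods, a pool held fewer replicates than its group held rats. Neither the labels nor the methods say whether a replicate was 1 rat, nor whether the same sedentary pool was used throughout. On chips 1 and 2 the WR pool was set against the sedentary pool, and on chips 3 and 4 the RWR pool was, with the dyes Cy3 and Cy5 exchanged between the chips of a pair. Both chips of a pair measured the same pools, so each comparison had 1 biological replicate, the spread between chips was technical, and no test between conditions was possible. In pooled whole tissue, fewer cells of a type and less RNA per cell cannot be told apart.

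Potassium channels let potassium leave or enter the cell and thereby set the resting potential, shape the action potential and limit repetitive firing. Voltage-gated channels open on depolarization, calcium- and sodium-activated channels couple ion entry to the return to rest, inward rectifiers and tandem-pore leak channels hold the resting potential, and auxiliary subunits modify the traffic and gating of the pore-forming proteins. In the hippocampus, Kcnd2 (Kv4.2) carries the dendritic A-type current of pyramidal neurons, Kcnj3 and Kcnj6 form the G-protein-gated GIRK channels, and Kcnj10 (Kir4.1) is the main potassium channel of astrocytes.

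Sequences before the start of 5 members are shown because CpG content differed between genes that the chips measured and genes that they did not. RefSeq promoter entries of the GRCr8 assembly were found for 50 of the 75 genes (56 windows, since some genes have several starts), and the 250 bases before each start were read. The dinucleotide CG, which is the same on both strands, is in capitals. Kcnd2 (chr4:50742235-50742484, plus strand) and Kcnj6 (chr11:47778349-47778598, minus strand) were well above background in every measurement, and so was Kcna4 (chr3:114215086-114215335, plus strand). Kcnj15 (chr11:48070700-48070949, plus strand) and Kcnk18 (chr1:268360488-268360737, plus strand) were well above background in no measurement.
Kcnd2: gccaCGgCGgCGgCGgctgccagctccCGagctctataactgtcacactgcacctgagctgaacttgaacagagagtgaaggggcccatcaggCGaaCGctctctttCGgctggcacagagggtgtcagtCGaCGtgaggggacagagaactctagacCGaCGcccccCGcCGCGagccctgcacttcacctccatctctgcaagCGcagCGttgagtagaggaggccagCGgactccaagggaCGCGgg
Kcnj6: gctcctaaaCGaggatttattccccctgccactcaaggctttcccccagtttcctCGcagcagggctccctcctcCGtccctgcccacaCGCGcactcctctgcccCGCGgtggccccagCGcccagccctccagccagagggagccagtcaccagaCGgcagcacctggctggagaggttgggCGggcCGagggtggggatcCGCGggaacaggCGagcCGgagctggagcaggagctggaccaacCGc
Kcna4: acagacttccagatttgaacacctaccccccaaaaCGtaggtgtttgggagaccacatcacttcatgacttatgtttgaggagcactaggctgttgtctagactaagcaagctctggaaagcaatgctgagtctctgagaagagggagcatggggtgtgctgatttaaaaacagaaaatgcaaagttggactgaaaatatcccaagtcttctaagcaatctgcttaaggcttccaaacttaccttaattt
Kcnj15: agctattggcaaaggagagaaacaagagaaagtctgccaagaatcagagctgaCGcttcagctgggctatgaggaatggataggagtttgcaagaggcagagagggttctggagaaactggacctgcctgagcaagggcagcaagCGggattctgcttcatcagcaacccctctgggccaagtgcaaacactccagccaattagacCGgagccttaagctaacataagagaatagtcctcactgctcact
Kcnk18: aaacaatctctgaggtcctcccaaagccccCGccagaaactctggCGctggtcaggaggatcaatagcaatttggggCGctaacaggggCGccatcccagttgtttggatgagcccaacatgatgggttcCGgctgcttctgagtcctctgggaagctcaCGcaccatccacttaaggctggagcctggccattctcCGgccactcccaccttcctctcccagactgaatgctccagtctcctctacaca

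The windows of Kcnd2 and Kcnj6 held 20 and 16 CG dinucleotides, and those of Kcnj15 and Kcnk18 held 3 and 7. Kcna4, a shaker-type channel of axons, was measured on every chip although its window held 1 CG. The window of Kcnj2, well above background in no measurement, held 14, so the content of CG did not separate the genes fully. The observed count of CG over the count that the numbers of C and G would give had a median of 0.67 over the 40 windows of genes measured in both dyes on all 4 chips, 0.39 over the 16 windows of the other genes, and 0.38 over all 33469 windows of the table. A ratio over 0.6 was found in 24 of the 40 windows, 2 of the 16 and 33.0% of all windows. None of the 7 windows of genes that were never well above background exceeded 0.53, while that of the fully measured Kcnj6 lay close to them at 0.54. This measure was chosen after the signals had been seen, and these are descriptions of the windows, without a test. Windows of genes outside the family were not split by detection, so the difference is no result about potassium channel genes.

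**Figure D1:**
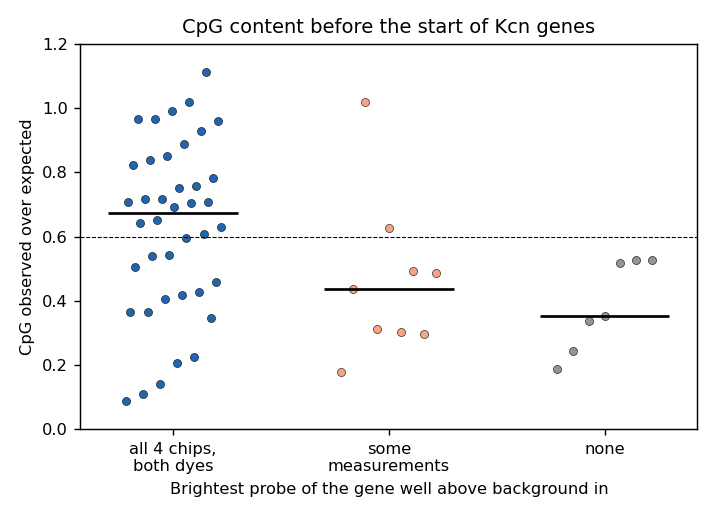
CpG content of the 250 bases before the start of Kcn genes, as observed over expected CG count on the y axis, by whether the gene's brightest probe was well above background (x axis). Each point is a window, lines are medians and the dashed line is a ratio of 0.6; 24 of 40 windows of fully measured genes lie above it and 0 of the 7 windows of genes never well above background.

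Most potassium channel genes gave a measurable signal in the hippocampus, and none of the 4 Kcne genes was fully measured. A probe was taken as measured where Feature Extraction flagged it as well above background, and each probe had 8 such flags (both dyes on 4 chips). All 8 were set for 56 of the 75 genes (74.7%, against 66.6% of the 8899 named genes), some were set for 11 genes, and none for 8. By probe, 63 of 86 were fully measured (73.3%, against 60.8% of all noncontrol probes). The neuron markers Wfs1, Calb1, Grin1 and Snap25 were fully measured, as were those of interneurons (4 of 4), astrocytes (6 of 6), oligodendrocytes (4 of 4) and microglia (3 of 3). Of the choroid plexus markers 2 of 4 were fully measured, with Kl in none of the 8 measurements.

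Among the voltage-gated genes, all members with a probe were fully measured in Kcnb (2 genes), Kcnc (3) and Kcnd (2), and 4 of 5 in Kcna, 6 of 8 in Kcnh and 2 of 3 in Kcnq. The electrically silent partners Kcns (3 of 3) and Kcnv (Kcnv1) were fully measured, and Kcng3 was not. Among the calcium- and sodium-activated genes, Kcnma1, both Kcnt genes and 3 of 4 Kcnn genes were fully measured. The inward rectifiers reached 11 of 15 and the tandem-pore genes 8 of 11. Of the auxiliary subunits, Kcnab reached 3 of 3, Kcnip 3 of 4 and Kcnmb 2 of 3, whereas none of the 4 Kcne genes did so and 3 of them had no flag at all. In the list of 19 hippocampal channel genes every gene was fully measured. In the list of channels known mainly from outside the brain, 9 of 14 genes had a probe, 0 were fully measured, 5 partly and 4 never. Both lists were chosen with earlier results of these data known, so these counts are no result about detection.

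**Figure D2:**
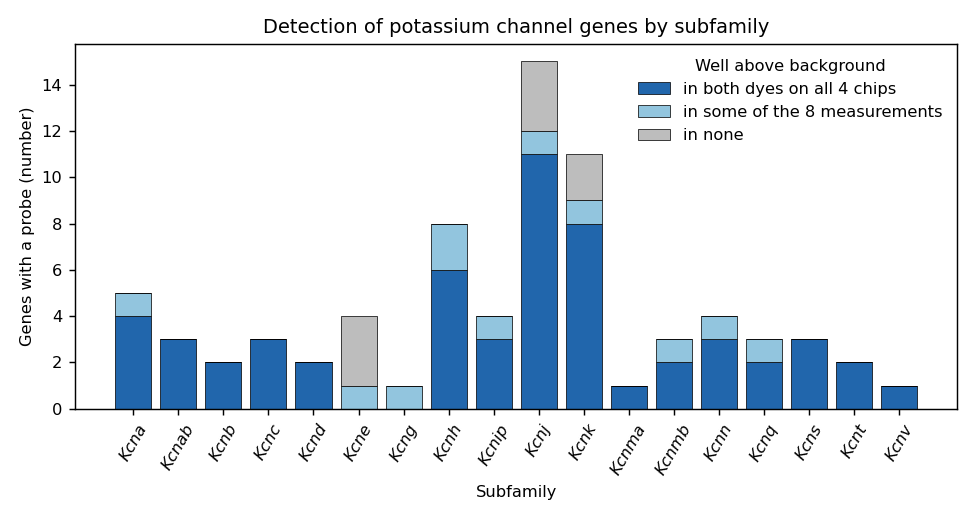
Number of Kcn genes with a probe (y axis) in each subfamily (x axis), split by how many of the 8 measurements of the brightest probe were well above background. Kcnj and Kcnk are the subfamilies with the most genes, 15 and 11, and the 4 Kcne genes are the only subfamily of several genes with none fully measured.

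Genes close to background were flagged more often in Cy5 than in Cy3. Of the 11 partly measured genes, 10 had more flags in Cy5 than in Cy3, 1 had as many and 0 had fewer. Of the 1944 partly measured named genes, 74.0% had more flags in Cy5, 8.95% as many and 17.0% fewer. Well above background in Cy5 on all 4 chips and in Cy3 on none were 3 genes (4.27% of partly measured named genes were so), singled out here after their values were seen, which are Kcna5, a cardiac and vascular channel, Kcnh4, and Kcnk3 (TASK-1), an acid-sensitive leak channel. Kcna5 gave signals of 5.42, 28.2, 16.3 and 32.3 in the sedentary pool on chips 1 to 4, 32.0 and 8.19 in the WR pool on chips 1 and 2, and 33.1 and 6.98 in the RWR pool on chips 3 and 4. On each chip the pool in Cy5 was the higher and the pool in Cy3 was not well above background, so no ratio is given. By the deposited ratios, 4 of the 19 genes that were not fully measured lay on the same side of 0 on both chips in WR (21.1%, against 11.3% of such named genes). In RWR 2 did so (10.5%, against 18.9%). Some of them, such as Kcne3 and Kcnj2 in WR, were well above background in no measurement, so the order of their pools cannot be read.

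Over the family, the ratios of the dye orientations tended to be opposed. Over the 75 genes, the ratios of chip 1 and chip 2 correlated at r = -0.82 and those of chips 3 and 4 at r = -0.55, and over all probes the values were -0.76 and -0.69. These are correlations across genes, which are not independent replicates, of 2 chips carrying the same pools. Of the 344 measurements of Kcn probes, 16 had a deposited single-chip p-value under 0.01, from 8 genes. Of the 16, 15 were brighter in Cy5 (93.8%, against 53.5% of the 10222 such measurements over all noncontrol probes). Several of the 16 came from the same probe on different chips. Only 2 came from probes well above background in all 8 measurements, so the share describes mainly dim probes. By chip, 2.33% to 6.98% of Kcn probes had a p-value under 0.01, against 3.92% to 7.82% of all noncontrol probes. The mean of both chips, in which a constant dye effect cancels, is the value given as the ratio of a comparison.

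**Figure D3:**
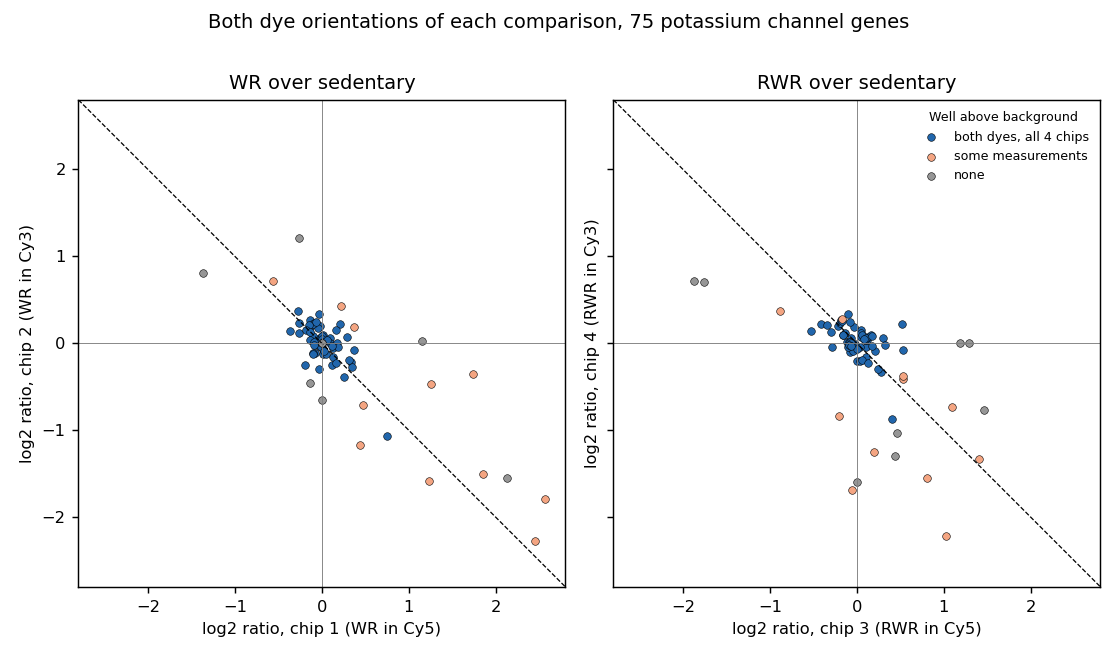
The log2 ratio of running over sedentary of each of the 75 Kcn genes on the chip with the running pool in Cy5 (x axis) against the chip with it in Cy3 (y axis), for WR (left) and RWR (right), coloured by detection. The dashed line marks equal size with opposite sign; points along it differ by dye, and r is -0.82 and -0.55.

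No potassium channel probe passed the selection used here, which took the fold cutoffs and the p threshold from the methods, in either comparison. It asked for a change of more than 1.5-fold upwards, or to less than 0.75-fold, that held with both dye orientations of the pair, and, in its stricter form, also for a p-value under 0.01 on both. For WR, 0 of the 86 probes were above the fold (background 0.212% of all noncontrol probes) and 0 below it (0.336%), and with the p-value 0 were above (0.00244%) and 0 below (0.0293%). For RWR, 0 of the 86 were above (0.0878%) and 0 below (1.39%), and with the p-value 0 above (0.00975%) and 0 below (0.0488%). At these backgrounds about 1 probe of 86 or fewer would be called in each count, so the counts of 0 are no result about the family.

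The median ratio of the family was near 0 in both comparisons. The median log2 ratio of the 75 genes was 0.028 for WR (0.0016 over the named genes) and -0.015 for RWR (-0.0047 over the named genes). The 56 fully measured genes spanned -0.22 to 0.21 for WR, all 56 within 0.25 of 0, and reached up to 0.37 for RWR, 55 of them within 0.25 of 0. In the 56 genes, the mean of the pair was larger than the distance of either chip from it for 18 genes in WR (32.1%, against 30.0% of fully measured named genes) and for 24 in RWR (42.9%, against 32.8%).

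Counting directions, 13 of the 75 genes were above 0 on both chips for WR (17.3%, background 12.2% of named genes) and 9 below 0 (12.0%, background 11.6%). For RWR, 14 were above 0 (18.7%, background 12.5%) and 12 below (16.0%, background 15.7%). Among genes measured in both dyes on the pair, 10 of 56 were above 0 for WR (17.9%, against 14.7% of such named genes) and 8 below (14.3%, against 15.2%), and 14 of 57 were above for RWR (24.6%, against 15.8%) and 10 below (17.5%, against 16.3%). Both comparisons were made against sedentary RNA, possibly of a single pool. Their values are given side by side, and genes that agree or differ over both are not counted.

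**Figure D4:**
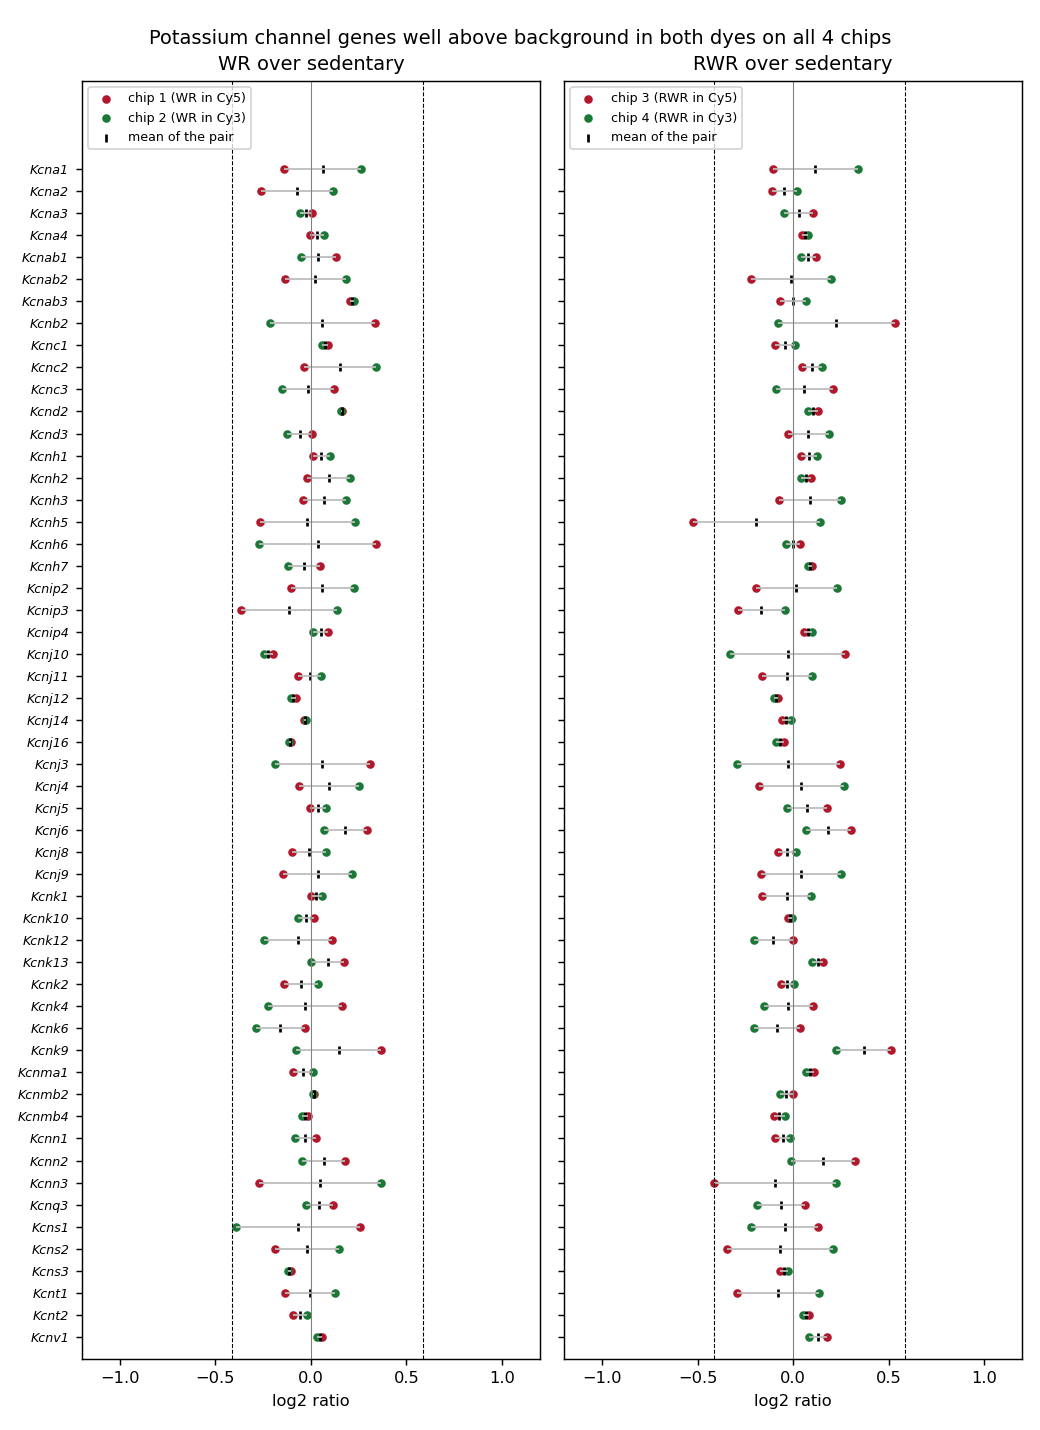
The log2 ratio of running over sedentary (x axis) of 54 of the 56 Kcn genes (y axis) measured in all 8 flags, for WR (left) and RWR (right). Coloured points are the chips of a pair, joined by a line, black ticks are their means and dashed lines are 1.5-fold and 0.75-fold; the mean furthest from 0 is the 0.37 of Kcnk9 for RWR, and for many genes the chips fall on opposite sides of 0.

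Of the hippocampal list, Kcnd2 was the gene whose chips differed least in WR. Its probe read 790.4, 938.4, 1229 and 1102 in the sedentary pool on chips 1 to 4, 885.0 and 1046 in the WR pool and 1346 and 1162 in the RWR pool. The running pool was the brighter on each chip, although the sedentary signals themselves differed between chips by more than the pools of a chip did. The log2 ratio was 0.16 on both chips for WR (1.12-fold for the pair) and 0.13 and 0.08 for RWR (1.07-fold). The related Kcnd3, which forms A-type channels as well, had -0.06 for WR (0.01 and -0.12) and 0.08 for RWR (-0.03 and 0.19), and its dimmer probe was well above background in 2 of 8 measurements.

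The fast-spiking channel genes Kcnc1 and Kcnc2 had means between -0.04 and 0.15. Kcnc1, a channel of fast-spiking interneurons, had 0.09 and 0.06 for WR and -0.10 and 0.01 for RWR. Kcnc2, of the same subfamily, had -0.03 and 0.34 for WR and 0.04 and 0.15 for RWR. Only the chips of Kcnc1 in WR and of Kcnc2 in RWR stood on the same side of 0.

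Of the axonal shaker-type genes, Kcna1 and Kcna2 had chips on opposite sides of 0 in both comparisons. Kcna1 had -0.14 and 0.26 for WR and -0.11 and 0.34 for RWR. Kcna2 had -0.26 and 0.11 for WR, and -0.11 and 0.02 for RWR. Kcna4 had -0.01 and 0.07 for WR and 0.05 and 0.08 for RWR. The brightest probes of Kcna1 and Kcna2 were lower with the running pool in Cy5 and higher with it in Cy3 in both comparisons, whereas the dimmer probe of Kcna1 ran the other way, with 0.26 and -0.13 for WR and 0.22 and -0.19 for RWR.

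Kcnq3, a voltage-gated channel that limits repetitive firing, had 0.11 and -0.03 for WR and 0.06 and -0.19 for RWR.

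Of the ether-a-go-go and silent subfamilies, 4 fully measured genes are given. Kcnh1 had 0.01 and 0.10 for WR and 0.04 and 0.12 for RWR. Kcnh7, an erg-type channel of neurons, had 0.05 and -0.12 for WR and 0.10 and 0.08 for RWR. Kcnv1, a silent subunit that does not form channels alone, had 0.06 and 0.03 for WR and 0.17 and 0.08 for RWR. Kcns3, another silent subunit, had the other sign, -0.10 and -0.12 for WR and -0.07 and -0.03 for RWR.

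With the deposited ratios, the largest mean for WR above 0 among fully measured members was that of the auxiliary gene Kcnab3, a cytosolic beta subunit of shaker channels. Its probe read 98.8, 92.7, 116.9 and 93.9 in the sedentary pool on chips 1 to 4, 114.0 and 108.2 in the WR pool and 111.2 and 98.3 in the RWR pool. The WR pool was the brighter on both of its chips, with 0.21 and 0.22 (1.16-fold), but its signals lay within the range of the 4 sedentary signals. RWR gave -0.07 and 0.07. The Kcnab3 ratio for WR was 0.0019 with normexp background correction and loess and 0.07 with no background correction and loess. In both settings Kcnj6 and Kcnd2 lay further above 0. Kcnab2, the main beta subunit of brain, had 0.02 for WR and -0.01 for RWR as means. The Kv4 partner Kcnip3 (DREAM) had -0.37 and 0.14 for WR and -0.29 and -0.04 for RWR (mean -0.17, 0.89-fold), and Kcnip4 had 0.09 and 0.01 for WR and 0.05 and 0.10 for RWR.

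Of the calcium-activated channels and their subunits, 4 fully measured genes are given. Kcnma1 (BK), which shortens the action potential, had -0.10 and 0.01 for WR and 0.11 and 0.06 for RWR, and its other probe had the other sign of the mean in both comparisons. Its beta subunit Kcnmb4, the brain form, had -0.01 and -0.05 for WR and -0.10 and -0.05 for RWR. Kcnn2 (SK2), which contributes to the afterhyperpolarization, had 0.18 and -0.05 for WR and 0.32 and -0.01 for RWR. Kcnn1 had 0.03 and -0.08 for WR and -0.10 and -0.02 for RWR. The mean furthest from 0 among these 4 genes was the 0.15 of Kcnn2 in RWR.

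Among the fully measured inward rectifiers, Kcnj6 (GIRK2) had the largest means above 0 in both comparisons. Its probe read 732.8, 680.7, 807.5 and 718.6 in the sedentary pool on chips 1 to 4, 897.3 and 713.8 in the WR pool and 995.5 and 751.8 in the RWR pool. The running pool was the brighter on each chip, by more where it carried Cy5. The log2 ratios were 0.29 and 0.07 for WR (1.13-fold) and 0.30 and 0.07 for RWR (1.14-fold). Kcnj3 (GIRK1), its partner in the channel, had 0.31 and -0.19 for WR and 0.24 and -0.29 for RWR, and its 3 probes had means that differed by 0.06 in WR and 0.15 in RWR.

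With the deposited ratios, Kcnj10 had the largest mean below 0 for WR among fully measured members. Its probe read 50.1, 44.5, 46.2 and 48.2 in the sedentary pool on chips 1 to 4, 43.7 and 37.5 in the WR pool and 55.7 and 38.3 in the RWR pool. Both WR signals lay below the 4 sedentary signals, and the RWR signals lay on either side of them. The log2 ratios were -0.20 and -0.25 for WR (0.86-fold) and 0.27 and -0.33 for RWR. With normexp and loess the WR mean was -0.10, and with no background correction and loess it was -0.08, and in both settings Kcns3 and Kcnj16 lay further below 0. The 6 astrocyte markers, measured beside it, had WR means between -0.04 and 0.06, and their summed signal was 43542 and 37463 in the WR pool against 41825 and 39236 in the sedentary pool on the same chips. The oligodendrocyte markers had WR means between -0.07 and -0.06, all 4 below 0, with a sum of 61127 and 55502 in the WR pool against 65268 and 57190. The 4 choroid plexus markers had WR means between -0.86 and 0.43, the highest that of Kl, which was well above background in no measurement. The fully measured Ttr had -0.72 and -0.99 for WR and Folr1 had -0.07 and -0.36, while the chips of Clic6, measured in part, lay on opposite sides of 0. The sum over the 4, most of it from Ttr (519.9 and 530.9 in the sedentary pool), was 385.1 and 310.7 in the WR pool against 585.0 and 587.7. The part of these markers in the Kcnj10 value was not tested.

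The other named inward rectifiers lay slightly below 0. Kcnj12 had -0.08 and -0.11 for WR and -0.08 and -0.10 for RWR. Kcnj16, which pairs with Kcnj10 in glia and epithelia, had -0.11 on both chips for WR and -0.05 and -0.09 for RWR. Kcnj14 had -0.04 and -0.03 for WR and -0.06 and -0.01 for RWR. The folds of these 3 genes lay between 0.927 and 0.978.

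The largest difference of any fully measured member was that of Kcnk9 (TASK-3), an acid-sensitive leak channel, in RWR. Its probe read 544.0, 548.6, 589.8 and 584.3 in the sedentary pool on chips 1 to 4, a CV of 4.18% over both dyes. The RWR pool read 842.4 and 681.2, above all 4 sedentary signals, and the WR pool read 701.4 and 520.3, on either side of them. The log2 ratios were 0.51 and 0.22 for RWR (1.29-fold) and 0.37 and -0.08 for WR (1.11-fold). On both pairs the higher ratio was that of the chip with the running pool in Cy5, and neither RWR chip reached 1.5-fold. The deposited single-chip p-value was 0.014 and 0.28 on the RWR chips and 0.077 and 0.71 on the WR chips.

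The other fully measured tandem-pore genes had RWR means closer to 0 than Kcnk9. Kcnk13 (THIK-1), known from microglia, had 0.17 and 0.00 for WR and 0.16 and 0.10 for RWR. Its relative Kcnk12 had 0.11 and -0.25 for WR and -0.00 and -0.21 for RWR. Kcnk6 had -0.03 and -0.29 for WR and 0.03 and -0.20 for RWR. The 3 microglia markers Aif1, Cx3cr1 and Itgam had RWR means between -0.28 and 0.13 and WR means between -0.11 and 0.07, and their summed signal in the RWR pool was 2746 and 2417 against 2604 and 2196 in the sedentary pool; their part in the Kcnk13 value was not tested. Kcnk1 (TWIK-1) and Kcnk2 (TREK-1) had means between -0.05 and 0.03.

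**Figure D5:**
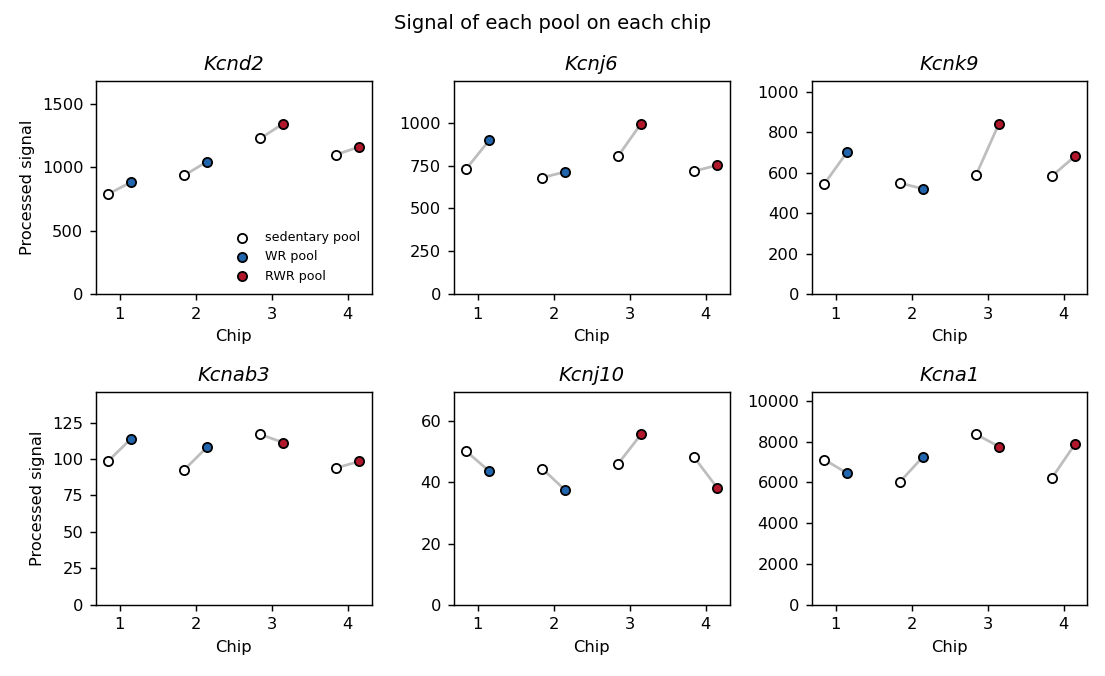
Processed signal (y axis, linear, each panel with its own scale) of 6 Kcn genes in the sedentary pool (open) and the running pool (filled) of each chip (x axis); lines join the pools of a chip. The running pool is brighter on every chip for Kcnd2 and Kcnj6 and on 3 of 4 for Kcnk9, and for Kcna1 the order turns with the dye.

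The spread of the sedentary signals over the 4 chips holds chip and dye differences, since sedentary RNA was in Cy3 on chips 1 and 3 and in Cy5 on chips 2 and 4, and it is free of differences between pools only if a single sedentary pool was used. Their CV had a median of 9.75% over the 56 fully measured Kcn genes (range 1.65% to 39.8%), against 9.13% over fully measured named genes. The 1.12-fold of Kcnd2 in WR lay inside a CV of 18.8% between chips and was read only within chips.

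Members with several probes did not always show 1 direction. The sign of the mean differed between probes of a gene for 4 of 10 genes in WR and 6 of 10 in RWR. The 10 genes include Kcna3, Kcnd3 and Kcnk6, with only 1 probe fully measured, and Kcnmb1, with 0. The share over all named genes with several probes is not given, so these counts are no result about the family. For 12 probes in WR and 8 in RWR neither pool was well above background on either chip, and for 6 probes in WR and 5 in RWR 1 pool was not. Their ratios have at most a bound and enter the counts, medians and correlations over the 75 genes, but none is given for a single Kcn probe. Where a lower bound over 1 could be computed, the chips lay on opposite sides of 0.

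Partners of the channels that are no members were taken from a list of 12 genes, of which 10 had a probe and 8 were fully measured. Their median log2 ratio was 0.04 for WR and -0.01 for RWR, with 3 above and 0 below 0 on both chips for WR (background 12.2% and 11.6% of named genes) and 1 above and 2 below for RWR (background 12.5% and 15.7%). Dpp6, a Kv4 partner, had 0.02 and 0.12 for WR and -0.01 and 0.11 for RWR. Dpp10 had 0.10 and -0.34 for WR and 0.06 and -0.24 for RWR. Among the fully measured partners Abcc9 had the means furthest from 0, 0.19 for WR and 0.18 for RWR. Its chips lay on opposite sides of 0 in both comparisons. Amigo1, a channel partner, had 0.13 and -0.22 for WR and -0.06 and -0.21 for RWR. Dpp6 and Amigo1 thus stood on opposite sides of 0 by their means in WR, 0.07 and -0.05.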

How the data were processed

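Pools of hippocampal RNA of the 3 groups were hybridized in 2 colours to 4 chips of 1 slide. The authors processed the scans with Agilent Feature Extraction 11.0.1.1 (background subtraction, LOWESS dye normalization); the array was designed on an older rat build. They deposited, for each spot, the processed signal as an intensity in each dye, the log10 ratio of Cy5 over Cy3, which is set to 0 where it was not measurable (2287 to 3749 of 45018 features per chip), and the p-value of the single-chip error model. In the deposited series matrix, 100% of features hold the log10 of processed Cy5 over processed Cy3, not turned for the dye swap.

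Control spots and outlier spots (118 to 140 per chip) were left out, 0 spots were saturated, and ratios were turned to running over sedentary by the dyes of the labels and converted to log2. The direction rests on those labels. Percentages of noncontrol spots well above background were 67.5 to 77.6 in Cy3 and 71.7 to 82.5 in Cy5. The number of chips limits the precision. Unversioned accessions were looked up in the GRCr8 gene table of RefSeq for names only, and promoter windows came from the matching sequence table. Python 3.11.15 with numpy 2.4.6 and pandas 2.3.3, and limma 3.58.1 in R 4.3.3 for background correction, loess and Aquantile values, were used. The selection was tested on simulated data, and no outcome of that test is given or used here.

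The members and lists were chosen with earlier results of these data known. Named with values were all called members (0), per comparison the 8 largest rises and 8 largest falls among genes measured in both dyes on the pair with the same sign on both chips, members with opposite directions in both comparisons, and a list of 19 hippocampal channel genes. Of these, 2 are not reported here. Alternatives were normexp (offset 50) or no background correction with loess, median centring, the series matrix values, only probes well above background, each chip left out, the median over a gene's probes, a fold of 1.5 in either direction, genes for probes, and other detection flags.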

Additional observations from a re-analysis of the deposited data

Results flagged for a closer look

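Kcnmb2 and Kcnt2, well above background in every measurement, went one way on both chips of WR and the other way on both chips of RWR. The share of all named genes with such opposed directions is not given, so this is no result about the family. Kcnmb2, a beta subunit that inactivates BK channels, had log2 ratios of 0.02 and 0.01 for WR and -0.00 and -0.07 for RWR, a difference of 0.051 (WR minus RWR). Kcnt2 (Slick), a sodium-activated channel, had -0.09 and -0.02 for WR and 0.08 and 0.05 for RWR, a difference of -0.125, while its dimmer probe had chips on opposite sides of 0 in both comparisons. These differences were not tested. Under the alternative settings the sign of the Kcnmb2 mean for RWR turned in 2 of 6 settings, and that of Kcnt2 for WR turned in 1 of 6.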

How the results depend on the processing

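The count of 0 Kcn probes past the fold held in both comparisons under every alternative that kept both chips of a pair. Among these, it could have risen with normexp or no background correction with loess, median centring or the series matrix values. The filter on probes well above background, genes for probes and the same fold in either direction only narrow the selection. They could return nothing but 0, so they show no robustness. Adding the p-value narrows it as well, so its count of 0 followed from that of the fold. With a single chip of the pair, 11 to 17 probes passed the fold and 3 to 5 passed it with the p-value for WR, and 14 to 18 and 2 to 6 for RWR. By chip, 12.8% to 20.9% of Kcn probes passed the fold, against 24.0% to 28.9% of all noncontrol probes, and 2.33% to 6.98% passed it with the p-value, against 3.92% to 7.81%. The genes below 0 then numbered 33 to 36 for WR and 35 to 36 for RWR. The median log2 ratio for WR was 0.0019 with normexp and loess, 0.0058 with loess and no background correction, 0.035 with the series matrix values, 0.019 over the 56 measured genes and 0.0 to 0.0065 with either chip alone. For RWR it was 0.015 with normexp and loess and 0.012 with loess and no background correction, and 0.0 to 0.034 with either chip alone. Its sign thus turned where background correction and normalization were replaced together, and which of them turned it was not tested. Detection changed from 63 probes to 68 with a flag in at least 1 dye and to 75 with the positive-and-significant flag. Of the 72 values of named genes, 14 moved by more than the SD of the chips with normexp and loess, 14 with loess and no background correction and 4 with the median over a gene's probes. That SD is wide where the dye effect is large, and median centring, the series matrix values and the filter on probes well above background leave fully measured genes nearly as they are. The sign of the mean turned in at least 1 setting for, among others, Kcna2, Kcnab2, Kcnd3 and Kcnt2 in WR and for Kcnab2, Kcnab3, Kcnd3, Kcnj3 and Kcnmb2 in RWR; the cause was not tested. No replicate block was fitted. No paired analysis was possible because each comparison had 1 pool per group and no test was made.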
